A study of Mus musculus with 8 samples.

Results

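The tumour line 2838c3 is 1 of 4 mouse pancreatic ductal adenocarcinoma lines whose poly(A) RNA was sequenced in culture. Its members in this data set are 2 of 8 libraries, 1 from wild-type (WT) cells and 1 from cells in which C1galt1c1 was knocked out (KO). They were set against the 6 libraries of the lines 6694c2, 6499c4 and 6419c5, each again with 1 WT and 1 KO culture. C1galt1c1 encodes Cosmc, the chaperone that the core 1 O-glycan synthase needs, and KO cells carry the truncated Tn antigen, so the study's own question was about O-glycans; the question here is what sets 2838c3 apart as a line. All cells were grown in DMEM with serum, and each genotype of each line was sequenced from 1 culture. A gene was called a gained marker of 2838c3 when the lower of its 2 values in 2838c3 lay above the highest of the other 6 libraries and reached 10 TPM, a gene's share of transcripts corrected for its length and scaled to 1 total in every library. A lost marker had its higher 2838c3 value below the lowest of the other 6 libraries, with at least 10 TPM in all of those 6. Of 14268 genes tested, 707 were gained markers and 297 were lost markers.

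Pancreatic ductal adenocarcinoma arises in the exocrine pancreas, often with loss of p53 function. The lines are clonal lines from tumours of mice in which a Pdx1-driven Cre switches on engineered tumour alleles, mutant Trp53 among them, in the pancreatic lineage, so each line is 1 clone of 1 tumour. As grafts in mice, 2838c3 and 6499c4 are known for tumours rich in T cells, and 6694c2 and 6419c5 for tumours poor in T cells. Such lines keep ductal keratins and differ in the endodermal factors, secreted signals and surface proteins that they express. The libraries here come from cultured cells, so no host cells of a graft are part of them.

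C1galt1c1 was measured at 40.4 TPM in the WT and 15.3 TPM in the KO library of 2838c3, 37 and 10.9 TPM in 6694c2, 54.2 and 19 TPM in 6499c4, and 37.9 and 16.1 TPM in 6419c5. It was lower in the KO library of each line, which checks the genotype labels. Ductal genes were present in 2838c3, where 13 of 15 ductal markers reached 1 TPM in at least 1 of its 2 libraries. Among them were the keratins Krt8 (5578 and 4755 TPM in WT and KO) and Krt18 (4834 and 5485 TPM) and the adherens junction cadherin Cdh1 (1249 and 788 TPM). Epcam was low in WT (1.35 and 25.1 TPM), as was Cldn4 (0.623 and 8.88 TPM), and Cftr and Mmp7 were under 1 TPM in both. Of 20 immune cell markers, 18 were under 1 TPM in both 2838c3 libraries, including Ptprc, Cd3e, Cd8a and Adgre1 at or below 0.0176 TPM. The exceptions were Cd14, an endotoxin co-receptor, at 396 and 418 TPM, and the lysosomal Cd68, at 8.93 and 28.1 TPM, and they made up nearly all of the summed 407 and 448 TPM of that list, against 248 to 362 TPM in the other libraries. Fibroblast markers were under 1 TPM for 11 of 14 genes, with summed levels of 247 and 254 TPM against 132 to 343 TPM, which came mostly from the actin-severing protein gelsolin, Gsn. Endothelial markers were under 1 TPM for 11 of 13 genes, with summed levels of 11.9 and 7.89 TPM against 13.3 to 139.7 TPM. The upper end of that range came mostly from Sox17, at 127 TPM in the WT library of 6499c4. Sox17 is also read below as an endoderm factor. RNA of unnamed genes took 0.713% and 1.21% of TPM in the WT and KO libraries of 2838c3, but 12.5% in the KO library of 6694c2 and 9.69% in that of 6419c5, against 1.05% to 1.33% in the remaining libraries. Since TPM are shares, every other gene in those 2 libraries is lowered by that much. Of 125 genes chosen for naming and called by limma, 125 kept direction and call when unnamed and structural RNA was left out. With median-ratio scaling 124 of them did, and 1 lost its call. With those 2 libraries themselves left out, fewer genes were called, as given below. Most of the 125 then lost their call, and none changed direction. Not every gene described below was among these 125.

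As whole profiles, the libraries of 2838c3 lay nearest to the WT library of 6694c2. Across the 14268 genes, the log2(TPM + 1) levels of the WT and KO libraries of 2838c3 correlated with r = 0.952, and the WT library of 2838c3 with that of 6694c2 with r = 0.948. The KO library of 2838c3 and the WT library of 6694c2 gave r = 0.946. The KO library of 6694c2 was less close, with r = 0.939 to the WT and 0.926 to the KO library of 2838c3, and pairs of a 2838c3 library with one of 6499c4 or 6419c5 gave 0.895 to 0.919. These correlations run over genes, which are no replicates, and the libraries share gene lengths and method. The nearest other library of a gained marker belonged to 6694c2 for 356 genes, to 6419c5 for 217 and to 6499c4 for 134, and of a lost marker to 6694c2 for 162 of 297 genes.

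The 707 gained markers were 4.96% and the 297 lost markers 2.08% of the genes tested, and these values chose them, so the markers are described and not tested as a set; p-values printed further on for single genes come from the fit over all 14268 genes, which does not correct for that choice. By the same rule 6694c2 had 538 gained and 994 lost markers, 6499c4 had 753 and 722, and 6419c5 had 1306 and 610. Most markers stood only just outside the range of the other lines: the median gap to the nearest other library was 0.147 log2 units for gained and 0.158 for lost markers. A gap of at least 1 log2 unit was left by 18 gained and 25 lost markers. The other lines had 40 gained and 29 lost (6694c2), 51 and 49 (6499c4) and 132 and 20 (6419c5) at that gap. No gained marker was under 1 TPM in all 6 other libraries, and 3 were under 3 TPM in all of them, while 5 lost markers were under 3 TPM in both 2838c3 libraries. Gained markers were 70.4% of all markers, but 55.4% when each library was scaled by its median ratio to the others and 58.8% when unnamed and structural RNA was left out. Just inside the level of 10 TPM was the gained marker Ampd3, with 10.0056 TPM as its lower 2838c3 value; on the lost side H2bc8 was inside, with 10.2 TPM as the lowest value of the other lines, and Asb3 outside with 9.81 TPM.

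The gained markers of largest gap included Pax2, Cyp21a1 and Fscn1. Where a line is given with 2 values, here and below, the first is its WT and the second its KO library. Pax2, a transcription factor of the developing kidney and midbrain, was at 32.5 and 24.4 TPM in 2838c3, 9.45 and 9.93 in 6694c2, 0.0146 and 0.102 in 6499c4, and 0.533 and 0.115 in 6419c5. It was highest in 2838c3, intermediate in 6694c2 and near 0 in the other lines. The steroid 21-hydroxylase gene Cyp21a1 was at 41.5 and 33.1 TPM against 0.258 to 6.10 TPM in the other libraries; a near-identical pseudogene lies next to it, so its counting is uncertain. Fscn1, which bundles actin in cell protrusions, was at 482 and 305 TPM in 2838c3, 9.42 and 7.58 in 6694c2, 70.9 and 148 in 6499c4, and 119 and 84.5 in 6419c5. Its lowest level was in 6694c2, the line most like 2838c3 as a whole profile.

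**Figure D1:**
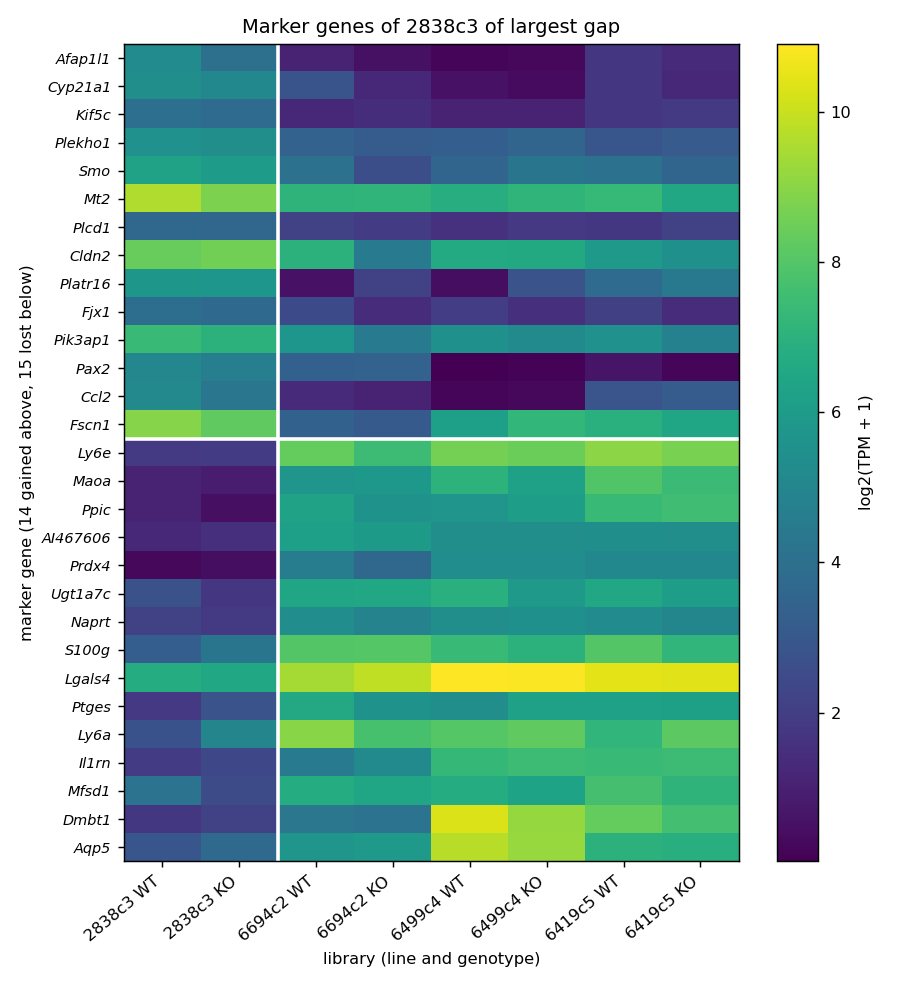
Levels of 14 gained (upper rows) and 15 lost (lower rows) markers of largest gap, as log2(TPM + 1), in the 8 libraries (columns, line and genotype); the white lines separate 2838c3 from the other lines and gained from lost markers. Ly6e, Maoa, Ppic and Prdx4 are dark in both 2838c3 libraries and bright in all 6 others.

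Other gained markers of largest gap had a range of known roles. Afap1l1, which binds actin filaments, was at 38.1 and 15.5 TPM in the WT and KO libraries of 2838c3 against 0.129 to 2.32 TPM elsewhere, and the kinesin heavy chain Kif5c at 14.8 and 13 TPM against 1.16 to 2.70 TPM. Cldn2, a claudin that forms paracellular cation pores, was at 327 and 378 TPM against 22.4 to 127 TPM. Pik3ap1, an adaptor that links receptors to PI3 kinase, was at 164 and 127 TPM against 22.1 to 52.6 TPM, and Plekho1, a membrane-binding regulator of that pathway, at 45.3 and 41.5 TPM against 6.74 to 10.9 TPM. Plcd1, a phospholipase C, had 11.7 and 11.2 TPM against 1.97 to 3.56 TPM and Fjx1, a secreted protein, 14.4 and 12.5 TPM against 1.64 to 4.58 TPM. The long noncoding RNA Platr16 had 53.9 and 52.5 TPM against 0.357 to 20.7 TPM. In these genes the 2 libraries of 2838c3 lay close together, except Afap1l1, whose KO level was below its WT level.

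Smo, the membrane protein that relays Hedgehog signals, was gained as well, at 77.1 and 63.8 TPM in 2838c3, 16.5 and 5.15 in 6694c2, 10.8 and 18.1 in 6499c4, and 15.7 and 10.8 in 6419c5. Both 2838c3 values lay well above the other 6, which overlapped one another. Of genes of the same pathway looked up after these values were seen, the ligand Dhh was at 100.2 and 94 TPM against 10.0 to 57.2 TPM. The receptor and target Ptch1 was at 15.9 and 21.7 TPM against 8.73 to 15.5 TPM, only just above the range of the others, and its difference from the other lines, 0.60 (SE 0.26, limma adjusted p = 0.238), did not pass the threshold. The kidney-type cadherin Cdh16, also looked up afterwards, was at 28.9 and 23.2 TPM in 2838c3, 11.4 and 6.63 in 6694c2, 0.0209 and 0.0291 in 6499c4, and 0.0815 and 0.0234 in 6419c5. It was high in 2838c3, lower in 6694c2 and near 0 in 6499c4 and 6419c5, the same order as that of Pax2.

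The lost markers held the larger gaps. Ly6e, an interferon-inducible protein anchored in the membrane by a lipid, was at 2.61 TPM in the WT and 2.71 TPM in the KO library of 2838c3, 319 and 175 TPM in 6694c2, 396 and 349.8 TPM in 6499c4, and 513 and 424 TPM in 6419c5. The 2 libraries of 2838c3 had almost the same low level and the other 6 were all high. Maoa, the monoamine oxidase that breaks down serotonin and noradrenaline, was at 1.11 and 0.808 TPM in 2838c3, 50.1 and 55.3 in 6694c2, 133 and 75.2 in 6499c4, and 243 and 171 in 6419c5. Ppic, a cyclophilin, had 1.07 and 0.365 TPM in 2838c3 against 46.6 to 188 TPM, and Prdx4, a peroxiredoxin of the endoplasmic reticulum, had 0.192 and 0.335 TPM against 12.1 to 40.4 TPM. Both were at or near the lower limit of expression in 2838c3 and expressed in all other libraries. AI467606, a gene of unknown function, had 1.38 and 1.78 TPM against 40.9 to 70.0 TPM, and Naprt, which makes NAD from nicotinic acid, 3.38 and 2.69 TPM against 28.9 to 43.4 TPM.

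Other lost markers of largest gap had a range of known roles. Lgals4, a galectin of the gut epithelium, was at 106 and 90.9 TPM in 2838c3, 685 and 932 in 6694c2, 1909.9 and 1846 in 6499c4, and 1395 and 1369 in 6419c5, so it was still well expressed in 2838c3 but below every other library. Dmbt1, a large mucosal glycoprotein, was at 2.44 and 3.55 TPM in 2838c3, 19.2 and 16.9 in 6694c2, 1272 and 579.7 in 6499c4, and 321 and 200.4 in 6419c5. The line 6694c2 lay nearest to 2838c3, and the range of the other lines was wide. The water channel Aqp5 had 6.59 and 12.3 TPM against 50.8 to 842 TPM and the calcium-binding S100g 8.75 and 17.9 TPM against 128 to 260.3 TPM. Ptges, which makes prostaglandin E2, had 2.51 and 6.02 TPM against 41.1 to 94.7 TPM, and the lysosomal transporter Mfsd1 16.8 and 4.84 TPM against 78.9 to 206 TPM. Il1rn, the antagonist of the interleukin-1 receptor, was at 2.76 and 4.19 TPM in 2838c3, 22.3 and 36.7 in 6694c2, 155 and 179 in 6499c4, and 169 and 178 in 6419c5. Ugt1a7c, a glucuronosyltransferase, had 5.57 and 2.34 TPM against 56.8 to 122 TPM, with the caveat that the genes of this cluster share exons and the counting can split their reads.

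Some markers stood apart together with the gene next to them. The positions are those of GENCODE on GRCm39, the build of the submitters' alignment. Maoa and Maob, which lie 20750 bases apart on chromosome X, were both low: Maob had 0.435 and 0.225 TPM in 2838c3 against 3.92 to 50.8 TPM. On chromosome 15 the Ly6 genes Ly6e, Ly6a and Ly6c1 were all below the other lines. Ly6a, which encodes a surface antigen known from blood stem cells, was at 5.77 and 30.2 TPM in 2838c3, 492 and 211 in 6694c2, 261 and 299 in 6499c4, and 145 and 282 in 6419c5, and Ly6c1 was at 0.723 and 4.02 TPM in 2838c3, 51.6 and 33.6 in 6694c2, 8.22 and 19 in 6499c4, and 15.7 and 58.3 in 6419c5. In both, the KO library of 2838c3 lay above its WT library, while Ly6e did not differ in this way. Ly6a and Ly6c1 belong to a family of close paralogs whose reads the counting could split.

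The ParaHox genes Pdx1 and Cdx2, on chromosome 5, were also low together. Pdx1, which specifies the pancreas, was at 8.95 and 10.2 TPM in 2838c3, 69.1 and 31.2 in 6694c2, 63.4 and 58 in 6499c4, and 111 and 74.2 in 6419c5. Cdx2, the master regulator of the intestine, was at 1.86 and 5.65 TPM in 2838c3, 14.7 and 12.8 in 6694c2, 127 and 114 in 6499c4, and 245 and 163 in 6419c5. Neither overlapped with the other lines, and 6694c2 lay nearest to 2838c3 for Cdx2. Plut, the noncoding RNA beside Pdx1, had 0.547 and 0.871 TPM against 2.44 to 7.72 TPM.

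High together were the metallothioneins Mt2 and Mt1, neighbours on chromosome 8 that bind zinc and copper. Mt2 was at 781 and 431 TPM in 2838c3, 136 and 139.9 in 6694c2, 112 and 142 in 6499c4, and 158 and 90.1 in 6419c5, and Mt1 at 669 and 924 TPM in 2838c3, 465 and 269 in 6694c2, 300.3 and 496 in 6499c4, and 414 and 242 in 6419c5. The margin was wide for Mt2 and narrow for Mt1. The difference of Mt1 from the other lines, 1.16 (SE 0.34, limma adjusted p = 0.106), did not pass the threshold. The RefSeq promoter windows of the GRCm38.p6 build, from 250 bases before to 50 bases after the start, are shown for this pair because metal response elements in them are how the genes are known to answer to zinc; capitals mark each match of TGCGCNC or TGCACNC on either strand. The windows are Mt1 at chr8:94178839-94179138 and Mt2 at chr8:94172368-94172667, both on the plus strand.
Mt1: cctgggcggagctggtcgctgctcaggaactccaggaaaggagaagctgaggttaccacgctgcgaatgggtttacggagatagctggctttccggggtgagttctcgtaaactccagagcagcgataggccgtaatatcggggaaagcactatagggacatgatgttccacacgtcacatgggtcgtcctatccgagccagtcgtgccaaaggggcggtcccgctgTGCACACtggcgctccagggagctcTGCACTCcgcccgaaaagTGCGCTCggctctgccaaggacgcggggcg
Mt2: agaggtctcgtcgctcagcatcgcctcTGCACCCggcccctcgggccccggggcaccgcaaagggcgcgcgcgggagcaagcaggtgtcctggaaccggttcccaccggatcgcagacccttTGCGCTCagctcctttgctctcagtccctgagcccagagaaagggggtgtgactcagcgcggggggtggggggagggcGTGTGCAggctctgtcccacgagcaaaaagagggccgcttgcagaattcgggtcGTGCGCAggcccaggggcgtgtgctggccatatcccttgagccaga
The Mt1 window held 3 and the Mt2 window 4 matches, beside at least 1 match in 28.2% of all 27025 genes of the table, and a match is a description of the letters, not a site shown to be used.

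Chemokine neighbours on chromosome 11 were high together too. Ccl2, which draws monocytes, was at 34.6 and 18.6 TPM in 2838c3, 1.47 and 1.09 in 6694c2, 0.139 and 0.194 in 6499c4, and 6.43 and 8.19 in 6419c5. Ccl7, a close relative, was at 4.03 and 6.26 TPM in 2838c3, 0.0947 and 0.221 in 6694c2, 0 and 0 in 6499c4, and 1.03 and 1.88 in 6419c5. Both were above all other libraries, 6419c5 came next and 6499c4 was at or near 0. Smo and Tspan33, a tetraspanin on chromosome 6, also paired, with Tspan33 at 3.62 and 4.21 TPM against 0.0684 to 0.765 TPM. The neighbour on the other side of Smo went the opposite way. Ahcyl2, 5478 bases from Smo against 16039 for Tspan33, was a lost marker at 12.4 and 16.8 TPM against 18.1 to 31.0 TPM. Of 58 nearest neighbours of 29 markers of largest gap, 41 overlapped with the other lines, 12 lay outside them on the same side as the marker and 5 on the opposite side, beside 6.84% of all genes tested above and 5.32% below all other libraries. Neighbours that are themselves markers of largest gap, such as Ly6e and Ly6a, are counted from both sides. The neighbours described here were picked after their values were seen.

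**Figure D2:**
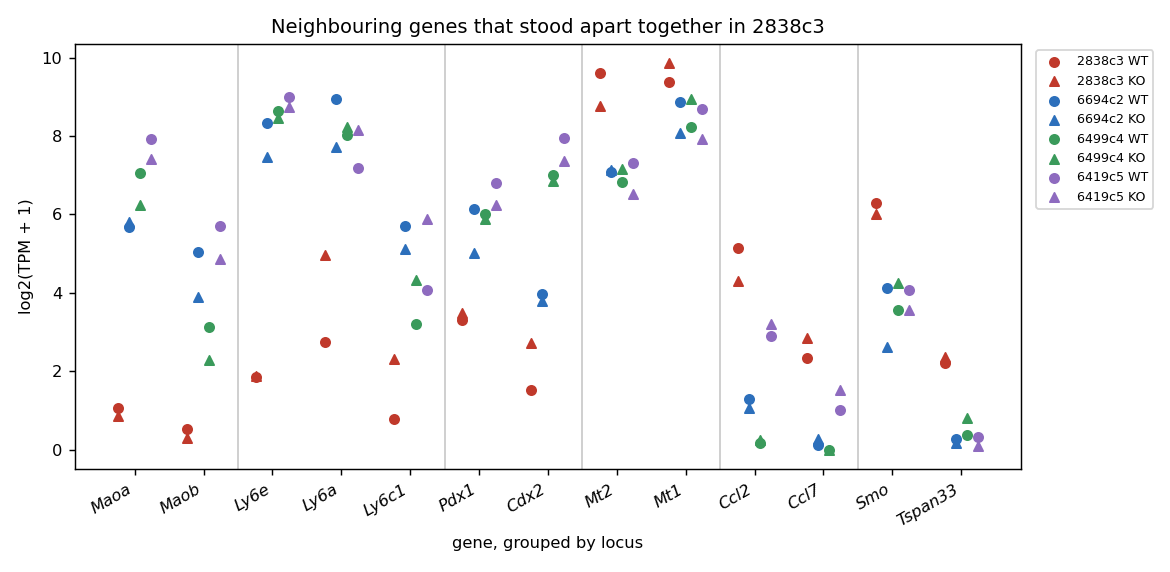
Levels of neighbouring genes, as log2(TPM + 1), with genes grouped by locus on the x axis; each point is 1 library, circles are WT and triangles KO, and colours are lines. The red points of 2838c3 lie below all others for Maoa to Cdx2 and above all others for Mt2 to Tspan33.

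To ask which genes differed in level by more than the spread between libraries, 2838c3 was compared with the mean of the other 3 lines by limma on log2(TPM + 1), with line and genotype as terms. The test called 379 genes higher (2.66% of those tested) and 589 lower (4.13%) in 2838c3 at an adjusted p under 0.05. The spread is that between the WT and KO library of a line after the mean genotype effect, with 3 residual degrees of freedom; no label gives repeated cultures, so these p-values measure only that spread. Of the higher genes, 260 lay above all 6 other libraries and 119 overlapped with at least 1 of them, and of the lower genes 314 lay below all others and 275 overlapped. The position of 2838c3 among the libraries is therefore given beside each gene. Irrespective of level, 6.84% of genes lay above and 5.32% below all other libraries in both 2838c3 libraries. Leaving out 1 library changed the counts to between 104 and 346 higher and between 210 and 439 lower. Without the 2 KO libraries rich in unnamed RNA they were 26 and 83, and without line 6694c2 541 and 867.

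Gene lists were then read for how many members were called. Over all genes tested 2.66% were called higher and 4.13% lower, the shares to set beside every list count below. Of the 34 lists, 28 had at least 1 call; of these, 0 had no call left without 6694c2, 4 without 6499c4, 5 without 6419c5 and 17 without the 2 KO libraries rich in unnamed RNA. Interferon-stimulated genes, which act against viruses and mark interferon signalling, had the most lower calls of the 34 lists: 0 of 34 genes tested were higher and 10 were lower in 2838c3, or 29.4% against 4.13% of all genes tested. The median difference of the list was -0.91 log2 units against 0.04 over all genes tested, and 32 of 34 differences were negative. Below all other libraries lay 11 members. The list's mean log2(TPM + 1) was 2.05 and 2.06 in 2838c3, 2.60 and 2.14 in 6694c2, 2.73 and 3.03 in 6499c4 and 4.30 and 3.79 in 6419c5. The highest levels were thus those of 6419c5 and the lowest those of 2838c3, with 6694c2 close to it. Without 6419c5 the lower calls fell to 1, which was Ly6e, and the list's median to -0.34; without 6694c2 they were 17, without 6499c4 3, and without the 2 KO libraries rich in unnamed RNA 2.

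Among these genes, Ly6e described above differed most, by -6.56 (SE 0.20, limma adjusted p = 0.000243). Irf7, the transcription factor that amplifies the interferon response, was at 0.621 and 1.74 TPM in 2838c3, 3.36 and 1.90 in 6694c2, 10.8 and 20.8 in 6499c4, and 36.7 and 23.5 in 6419c5, and its difference was -2.51 (SE 0.36, limma adjusted p = 0.0128). Isg15, a ubiquitin-like modifier, was at 0.321 and 0 TPM in 2838c3, 1.61 and 1.52 in 6694c2, 3.77 and 10.5 in 6499c4, and 16.1 and 10.6 in 6419c5, with a difference of -2.49 (SE 0.37, limma adjusted p = 0.0145). Ifi27, a mitochondrial protein induced by interferon, was at 36.1 and 36.9 TPM in 2838c3, 129 and 107 in 6694c2, 51.2 and 70.1 in 6499c4, and 231 and 170.5 in 6419c5, with a difference of -1.59 (SE 0.20, limma adjusted p = 0.00844). All 4 lay below every other library. Oasl1, a regulator of Irf7 translation, was below the others by a narrow margin, at 35.2 and 36.5 TPM against 37.3 to 47.9 TPM, and did not pass the test (difference -0.26, SE 0.16, limma adjusted p = 0.386). Ifit1, which binds viral RNA, was called lower (difference -1.11, SE 0.25, limma adjusted p = 0.0490) but overlapped with 6499c4, at 0.0913 and 0.177 TPM in 2838c3, 1.54 and 0.700 in 6694c2, 0.119 and 0.208 in 6499c4, and 6.48 and 3.91 in 6419c5. The RefSeq promoter windows of Isg15 (chr4:156200769-156201068, minus strand) and Ifit1 (chr19:34640639-34640938, plus strand), build GRCm38.p6, are shown because GAAANNGAA, the core of the element that interferon-activated factors are known to bind, occurs in both; capitals mark every match on either strand, and overlapping matches run together.
Isg15: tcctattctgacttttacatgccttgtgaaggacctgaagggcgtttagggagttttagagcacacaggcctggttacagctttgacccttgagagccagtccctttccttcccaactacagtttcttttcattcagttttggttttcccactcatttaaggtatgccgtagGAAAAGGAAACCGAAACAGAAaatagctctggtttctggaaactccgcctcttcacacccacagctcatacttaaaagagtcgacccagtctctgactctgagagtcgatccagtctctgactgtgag
Ifit1: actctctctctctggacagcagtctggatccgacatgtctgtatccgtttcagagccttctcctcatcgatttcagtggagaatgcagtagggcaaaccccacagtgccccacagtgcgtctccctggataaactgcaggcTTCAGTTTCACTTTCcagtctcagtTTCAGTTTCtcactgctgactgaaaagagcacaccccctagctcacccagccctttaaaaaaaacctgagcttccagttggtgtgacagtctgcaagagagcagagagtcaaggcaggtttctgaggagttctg
Each window held 3 matches. Of the 25 interferon-stimulated genes tested that the table lists, 17 had at least 1 match in a window of 300 bases, or 68%, against 9.76% of all 27025 genes. That share covers all tested members with a window, whether called lower or not. Among those called lower, Igtp had 1 match, while the windows of Irf7, Ifi35 and Xaf1 held none. Ly6e and Ifi27 had no window in the table. Whether the matches bear on the low levels was not tested.

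Class I antigen presentation, by which cells show peptides to T cells, had 0 higher and 4 lower calls among 19 genes tested, with a list median of -0.21, beside 4.13% lower calls and a median of 0.04 over all genes tested. The classical heavy chains were below all other libraries. H2-D1 was at 283 and 170.4 TPM in 2838c3, 395 and 407 in 6694c2, 464 and 471 in 6499c4, and 507 and 513 in 6419c5, with a difference of -1.06 (SE 0.21, limma adjusted p = 0.0339). H2-K1 was at 225 and 327 TPM in 2838c3, 513 and 351 in 6694c2, 448 and 476 in 6499c4, and 411 and 415 in 6419c5, and its difference of -0.67 (SE 0.23, limma adjusted p = 0.142) did not pass. The nonclassical H2-M3, which presents formylated peptides, was at 2.19 and 1.69 TPM in 2838c3, 11.1 and 15.8 in 6694c2, 3.80 and 3.46 in 6499c4, and 17.1 and 17.3 in 6419c5 (difference -1.86, SE 0.21, limma adjusted p = 0.00553). H2-Q4 and the peptide transporter subunit Tap2 were called lower (limma adjusted p = 0.0430 and 0.0476) but overlapped with 6499c4. B2m, the light chain shared by all of these, was not called and stood at 588 and 451 TPM in 2838c3, above 6694c2 and 6499c4 at 226 to 294 TPM. Heavy chain genes are near-identical to one another, so their counts are uncertain. Without 6419c5 the list had 0 calls in either direction, without 6499c4 and without 6694c2 2 lower calls each, and without the 2 KO libraries rich in unnamed RNA 0.

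**Figure D3:**
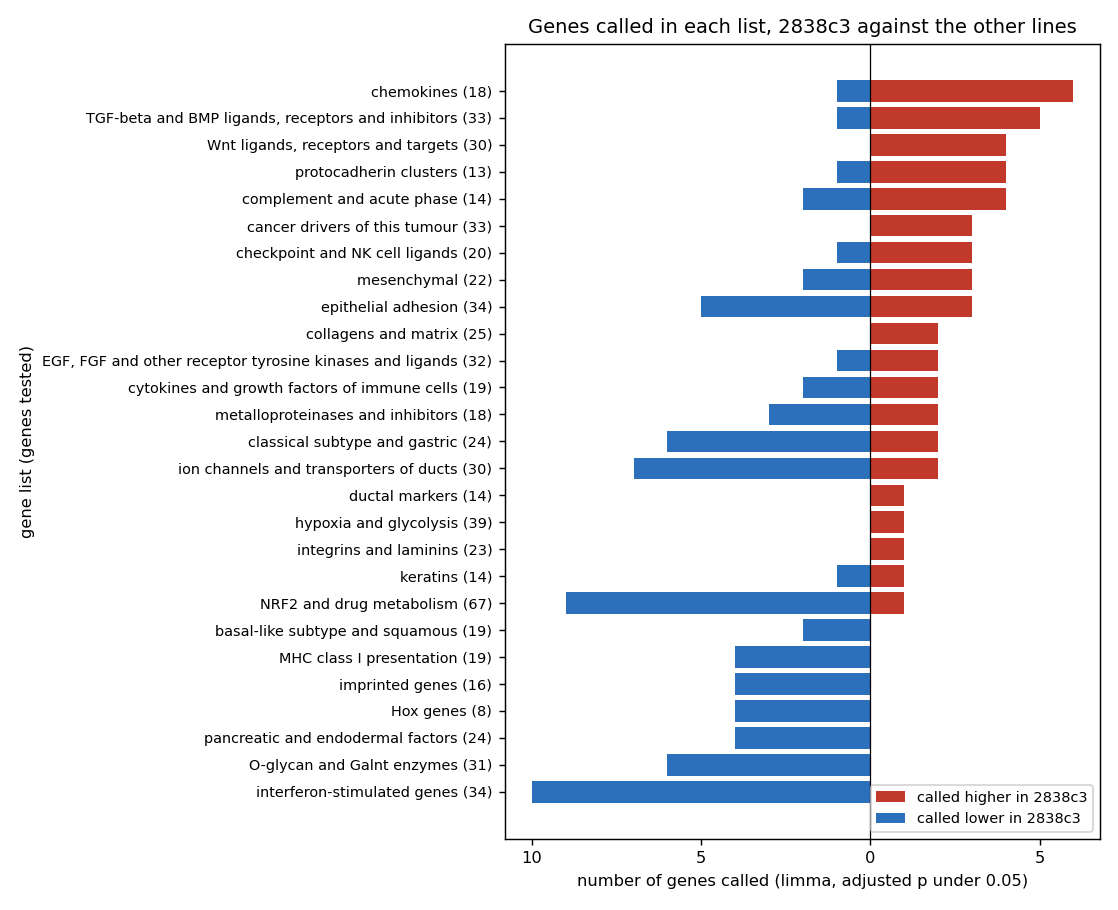
Number of genes called higher (red, to the right) or lower (blue, to the left) in 2838c3 by limma at an adjusted p under 0.05, for each gene list with at least 5 genes tested and at least 1 call; the number tested is in parentheses. Interferon-stimulated genes have 10 lower and 0 higher calls, and chemokines 6 higher and 1 lower.

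Chemokines, the secreted proteins that draw leukocytes, leaned the other way, with 6 of 18 tested genes higher and 1 lower (33.3% higher against 2.66% of all genes tested) and a list median of 0.72. Ccl2 and Ccl7, described above, differed by 3.24 (SE 0.27, limma adjusted p = 0.00178) and 2.10 (SE 0.21, limma adjusted p = 0.00364). Cxcl3, a ligand of the neutrophil receptor Cxcr2, was at 29.3 and 17.4 TPM in 2838c3, 1.80 and 9.28 in 6694c2, 1.02 and 1.77 in 6499c4, and 6.19 and 3.78 in 6419c5 (difference 2.49, SE 0.50, limma adjusted p = 0.0363). Cx3cl1, a membrane-bound chemokine, was at 104 and 92.7 TPM against 39.1 to 71.8 TPM (difference 0.93, SE 0.17, limma adjusted p = 0.0261), and Ccl17 and Ppbp were also called, at levels under 10 TPM in all libraries. These 6 genes lay above all other libraries. Cxcl1, another Cxcr2 ligand, was lower, at 0.259 and 0.0418 TPM in 2838c3, 14.4 and 19 in 6694c2, 0.127 and 0 in 6499c4, and 18 and 26.2 in 6419c5. It was near 0 in 2838c3 and 6499c4, the lines known for tumours rich in T cells, and between 14.4 and 26.2 TPM in 6694c2 and 6419c5; its difference of -2.71 (SE 0.24, limma adjusted p = 0.00216) is therefore shared with 6499c4. The higher calls were 7 without 6694c2, 2 without 6499c4, 3 without 6419c5 and 1 without the 2 KO libraries rich in unnamed RNA; Ccl2 was among them each time.

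Other secreted and surface signals to immune cells moved both ways. Of 19 cytokines and growth factors tested, 2 were higher and 2 lower. Their calls became 2 and 3 without 6694c2, 0 and 2 without 6499c4, 0 and 2 without 6419c5, and 0 and 1 without the 2 KO libraries rich in unnamed RNA. Tgfb1, which restrains T cells, was at 63.4 and 88.9 TPM in 2838c3, 57.1 and 52.3 in 6694c2, 24.3 and 38.3 in 6499c4, and 37.7 and 39.8 in 6419c5 (difference 0.89, SE 0.20, limma adjusted p = 0.0477), and the scavenging chemokine receptor Ackr3 was at 49.3 and 54.3 TPM against 12.2 to 41.1 TPM (difference 1.29, SE 0.26, limma adjusted p = 0.0366). Il1rn, given above, differed by -4.43 (SE 0.18, limma adjusted p = 0.000316), and Il18 was at 1.33 and 0.456 TPM in 2838c3, 1.32 and 0.601 in 6694c2, 37.3 and 20.1 in 6499c4, and 20.4 and 13.8 in 6419c5, as low in 6694c2 as in 2838c3 (difference -2.43, SE 0.18, limma adjusted p = 0.00137). Of 20 ligands of checkpoint and NK cell receptors, 3 were higher and 1 lower; in the same order of lines left out these became 5 and 3, 1 and 1, 2 and 0, and 0 and 0. Tnfsf9, the ligand of the costimulatory receptor 4-1BB, was at 87.5 and 62.6 TPM in 2838c3, 50.9 and 48.6 in 6694c2, 35.7 and 34.8 in 6499c4, and 36.9 and 26.8 in 6419c5 (difference 0.94, SE 0.17, limma adjusted p = 0.0261). Nectin1, an adhesion molecule, was at 10.5 and 11.5 TPM in 2838c3, 8.47 and 5.43 in 6694c2, 0.0840 and 0.117 in 6499c4, and 0.164 and 0.189 in 6419c5 (difference 2.47, SE 0.22, limma adjusted p = 0.00238), and the NKG2D ligand Ulbp1 at 26.4 and 8.01 TPM in 2838c3, 5.67 and 2.72 in 6694c2, 0 and 0.121 in 6499c4, and 6.74 and 6.34 in 6419c5 (difference 2.20, SE 0.36, limma adjusted p = 0.0193). Raet1d, another NKG2D ligand, was called lower (difference -1.11, SE 0.21, limma adjusted p = 0.0325), with 6.94 and 9.18 TPM in 6419c5 and under 1 TPM in all other libraries. Of 14 genes of complement and the acute phase, 4 were higher and 2 lower, with a median of 0.59. The calls of this list became 4 and 2 without 6694c2, 0 and 2 without 6499c4, 3 and 0 without 6419c5, and 0 and 0 without the 2 KO libraries rich in unnamed RNA. The complement protease Cfi was at 34.3 and 38.2 TPM in 2838c3, 18.5 and 6.26 in 6694c2, 11.2 and 2.19 in 6499c4, and 6.17 and 2.20 in 6419c5 (difference 2.39, SE 0.38, limma adjusted p = 0.0183) and the endotoxin-binding protein Lbp at 152 and 102 TPM in 2838c3, 66.4 and 20.6 in 6694c2, 12.3 and 5.49 in 6499c4, and 75.6 and 36.2 in 6419c5 (difference 2.24, SE 0.22, limma adjusted p = 0.00330), both above all others. C1s1 was higher but overlapped with 6419c5, and C2 was lower, at 0.563 and 0.566 TPM against 0.713 to 9.23 TPM.

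The factors that specify pancreas and endoderm had 0 higher and 4 lower calls among 24 tested, although the median of the list was 0.26. Pdx1 differed by -2.61 (SE 0.26, limma adjusted p = 0.00336) and Cdx2 by -4.03 (SE 0.34, limma adjusted p = 0.00193), and both were below all others. Sox17, an endoderm and bile duct factor, was at 0.271 and 0.476 TPM in 2838c3, 0.334 and 0.241 in 6694c2, 127 and 116 in 6499c4, and 58.2 and 48.3 in 6419c5 (difference -3.90, SE 0.18, limma adjusted p = 0.000448). It was near 0 in 6694c2 too, and Hnf4g, a nuclear receptor of the gut, had the same pattern at a lower level (0.246 and 0.149 TPM in 2838c3, 0.490 and 0.471 TPM in 6694c2 and 3.61 to 27.1 TPM in the others). The duct factor Sox9 was above all others at 17.4 and 22 TPM against 3.79 to 14.6 TPM, and the foregut factor Foxa2 at 171 and 166 TPM against 106 to 156 TPM; neither passed the test (limma adjusted p = 0.0708 and 0.159). The 4 lower calls were also made without 6694c2 and without 6499c4, 3 of them (Pdx1, Cdx2 and Sox17) without 6419c5 and without the 2 KO libraries rich in unnamed RNA.

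Of 24 genes of the classical tumour subtype and of gastric epithelium, 2 were higher and 6 lower, or 8.33% and 25%, beside 2.66% and 4.13% of all genes tested. Those calls became 3 and 9 without 6694c2, 0 and 4 without 6499c4, 2 and 3 without 6419c5, and 1 and 1 without the 2 KO libraries rich in unnamed RNA. Lgals4 differed by -3.68 (SE 0.19, limma adjusted p = 0.000615). The stomach claudin Cldn18 was at 1.36 and 0.721 TPM in 2838c3, 1.48 and 0.993 in 6694c2, 208 and 179 in 6499c4, and 0.439 and 0.638 in 6419c5, so its difference of -2.11 (SE 0.21, limma adjusted p = 0.00321) came from 6499c4, and it turned to 0.13 without that line. Fut2, a fucosyltransferase of secretor antigens, was at 1.15 and 0.649 TPM in 2838c3, 3.67 and 1.09 in 6694c2, 59.8 and 23.8 in 6499c4, and 16.4 and 13.9 in 6419c5 (difference -2.73, SE 0.27, limma adjusted p = 0.00330). The trefoil peptide Tff2, higher by 2.48 (SE 0.23, limma adjusted p = 0.00259), was at 149 and 63.6 TPM in 2838c3, 346 and 228 in 6694c2, 3.39 and 1.32 in 6499c4, and 5.47 and 4.71 in 6419c5. It was high in 2838c3 and in 6694c2 and low in the other lines. Ctse, a gastric protease, was at 323 and 417 TPM against 64.4 to 300.1 TPM and did not pass (limma adjusted p = 0.0607). Muc1, a transmembrane mucin, was called higher (difference 0.99, SE 0.20, limma adjusted p = 0.0368), yet at 708 and 619.5 TPM it overlapped with 6499c4 and 6419c5, and 6694c2 was low at 145 and 96.1 TPM. Of 19 genes of the basal-like subtype and squamous epithelium, 0 were higher and 2 lower, the connexins Gjb2 (0.202 and 0.781 TPM against 1.73 to 48.8 TPM) and Gjb5 (1.46 and 1.32 TPM against 8.65 to 25.7 TPM). The Hox genes that pattern the body axis had 4 lower calls among 8 tested, all with high levels in 6419c5: Hoxa13 was at 0.0327 and 0.412 TPM in 2838c3, 0.644 and 0.966 in 6694c2, 1.99 and 2.99 in 6499c4, and 79 and 43.1 in 6419c5. The lower calls among them became 4 without 6694c2, 3 without 6499c4, 0 without 6419c5 and 1 without the 2 KO libraries rich in unnamed RNA.

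Epithelial adhesion genes were called in both directions, 3 higher and 5 lower of 34, or 8.82% and 14.7%, beside 2.66% and 4.13% of all genes tested. These calls became 3 and 8 without 6694c2, 0 and 1 without 6499c4, 2 and 3 without 6419c5, and 1 and 1 without the 2 KO libraries rich in unnamed RNA. Cldn3 was among the lower calls each time. Cldn2 was higher (difference 2.42, SE 0.49, limma adjusted p = 0.0376), as were the desmosomal plaque protein Dsp, at 269 and 188 TPM in 2838c3, 185 and 115 in 6694c2, 63.7 and 55.6 in 6499c4, and 105 and 75.7 in 6419c5 (difference 1.28, SE 0.16, limma adjusted p = 0.00736), and the epithelial factor Elf3, at 295 and 214 TPM against 97.7 to 179 TPM (difference 0.93, SE 0.14, limma adjusted p = 0.0158). Cldn3, a sealing claudin, was at 0.321 and 0.622 TPM in 2838c3, 0.783 and 0.632 in 6694c2, 153 and 233 in 6499c4, and 20.1 and 30.0 in 6419c5 (difference -3.79, SE 0.21, limma adjusted p = 0.000626). It was near 0 in 6694c2 as well, and the epithelial factor Ehf had the same pattern (difference -2.24, SE 0.26, limma adjusted p = 0.00644). Esrp2, a splicing factor of epithelia, was above the others only narrowly and did not pass (difference 0.40, SE 0.18, limma adjusted p = 0.242). Mesenchymal genes had 3 higher and 2 lower calls of 22, or 13.6% and 9.09%. Those calls became 4 and 3 without 6694c2, 0 and 1 without 6499c4, 1 and 1 without 6419c5, and 0 and 0 without the 2 KO libraries rich in unnamed RNA. Mmp3 and Col6a2 were higher at low levels (5.56 and 5.83 and 8.77 and 20.1 TPM), and Twist1, a factor of epithelial-mesenchymal transition, was lower (difference -2.57, SE 0.21, limma adjusted p = 0.00163), at 0.350 and 0.145 TPM in 2838c3, 0.0939 and 0.219 in 6694c2, 45.9 and 54.1 in 6499c4, and 5.10 and 6.87 in 6419c5. Among 14 keratins, Krt20, a marker of differentiated gut epithelium, was higher, at 575 and 484 TPM in 2838c3, 206 and 81.2 in 6694c2, 99 and 70.3 in 6499c4, and 353 and 343 in 6419c5 (difference 1.76, SE 0.26, limma adjusted p = 0.0143), and Krt13 lower (difference -2.48, SE 0.28, limma adjusted p = 0.00552). The keratin calls, 1 higher and 1 lower, became 1 and 2 without 6694c2 and 1 and 1 without 6419c5. Without 6499c4 neither Krt20 nor Krt13 was called. The keratin list kept no call without the 2 KO libraries rich in unnamed RNA. Krt19 was a lost marker at 2528 and 3005 TPM in 2838c3, 5023 and 3749.6 in 6694c2, 5926 and 8038 in 6499c4, and 3887 and 3789.9 in 6419c5, but its difference of -0.82 (SE 0.24, limma adjusted p = 0.105) did not pass.

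Among secreted signals of development, Wnt genes had 4 higher and 0 lower calls of 30 tested, or 13.3% higher, beside 2.66% of all genes tested. Wls, which carries Wnt proteins to the surface, was at 72.5 and 77.8 TPM in 2838c3, 24.9 and 16.6 in 6694c2, 38.2 and 28.2 in 6499c4, and 71.7 and 56 in 6419c5 (difference 1.08, SE 0.18, limma adjusted p = 0.0202), and the ligands Wnt10b and Wnt5a were above all others at low levels, 2.28 and 4.16 TPM against 0 to 0.228 TPM and 3.59 and 2.11 TPM against 0.0226 to 0.417 TPM. Wnt7a was called (difference 1.31, SE 0.28, limma adjusted p = 0.0412) and overlapped with 6694c2. The co-receptor Lrp5 was a gained marker at 148 and 162 TPM against 35.8 to 132 TPM that missed the threshold (limma adjusted p = 0.0582). The TGF-beta and BMP list had 5 higher and 1 lower of 33, with Tgfb1, the procollagen and BMP-activating protease Bmp1 (60.3 and 42.8 TPM against 11 to 27.3 TPM, difference 1.41, SE 0.31, limma adjusted p = 0.0476), the inhibitory Smad6 (42.6 and 30.8 TPM against 12.6 to 26.3 TPM, difference 0.94, SE 0.20, limma adjusted p = 0.0394), Gdf11 and Bmp6 higher. The BMP antagonist Grem1 was called lower (difference -1.56, SE 0.30, limma adjusted p = 0.0339) through its level of 83.4 and 42.3 TPM in 6419c5, and the sign turned to 0.19 without that line. Without 6499c4 the TGF-beta and BMP list had 0 calls and the Wnt list 2, and without the 2 KO libraries rich in unnamed RNA each had 0.

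Growth factor receptors and ligands had 2 higher and 1 lower call of 32, and Eph receptors and ephrins 0 of 16. The growth factor calls were 6.25% and 3.13%, near the 2.66% and 4.13% of all genes tested. They became 3 and 2 without 6694c2, 0 and 1 without 6499c4, and 1 and 2 without 6419c5. Nrg1, a ligand of ErbB receptors, was at 7.35 and 7.03 TPM against 1.24 to 5.83 TPM (difference 1.03, SE 0.20, limma adjusted p = 0.0324), and Pdgfd was low in 2838c3 and in 6694c2 alike (difference -2.57, SE 0.25, limma adjusted p = 0.00312). Pdgfb and Hbegf were gained markers that did not pass (limma adjusted p = 0.0958 and 0.245). Among 25 collagens and matrix genes, Agrn, a heparan sulphate proteoglycan, was higher at 262 and 262 TPM in 2838c3, 146 and 64.6 in 6694c2, 71.9 and 73.9 in 6499c4, and 187 and 107 in 6419c5 (difference 1.38, SE 0.27, limma adjusted p = 0.0343), and Fbln1, a basement membrane protein, at 79.7 and 71.8 TPM against 10.6 to 44.3 TPM (difference 1.46, SE 0.28, limma adjusted p = 0.0320). The collagen and matrix calls, 8% of that list, became 4 higher and 2 lower without 6694c2, and 0 without 6499c4 or without 6419c5. Of 23 integrins and laminins 1 was higher (4.35%, beside 2.66% of all genes tested), Itga7, which was still higher in 6694c2 KO (82.2 TPM). That list had 2 higher calls without 6694c2, and 0 without 6499c4 or without 6419c5. Of 18 metalloproteinases and inhibitors 2 were higher and 3 lower, or 11.1% and 16.7%. Those calls became 4 and 3 without 6694c2, 0 and 2 without 6499c4, and 2 and 0 without 6419c5. The growth factor, matrix, integrin and laminin, and metalloproteinase lists kept no call without the 2 KO libraries rich in unnamed RNA. Adamts9 was at 10.2 and 11.1 TPM against 0 to 4.67 TPM (difference 2.29, SE 0.30, limma adjusted p = 0.00867). Protocadherins, adhesion molecules of neurons, had 4 higher and 1 lower call of 13, or 30.8% and 7.69%. These counts became 4 and 2 without 6694c2, 1 and 0 without 6499c4, 2 and 1 without 6419c5, and 0 and 0 without the 2 KO libraries rich in unnamed RNA. The largest difference among the higher ones was that of Pcdhb17 (1.73, SE 0.21, limma adjusted p = 0.00766), and Pcdhgc3 was at 15.2 and 12 TPM against 3.84 to 8.44 TPM.

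In number of lower calls, drug metabolism and ductal transport came next after the interferon list. By share of the genes tested the Hox list was highest, with 50%. Of 67 genes of the NRF2 response and drug metabolism, 1 was higher and 9 lower, or 1.49% and 13.4%, beside 2.66% and 4.13% of all genes tested. Ugt1a7c differed by -4.17 (SE 0.26, limma adjusted p = 0.000799), and the exporter Abcc3 was at 61.9 and 56.1 TPM in 2838c3, 177 and 166 in 6694c2, 131 and 115 in 6499c4, and 98.4 and 62.9 in 6419c5 (difference -0.99, SE 0.17, limma adjusted p = 0.0218). The glutathione transferase Gsta3 was at 0.167 and 0.198 TPM, near 0 also in 6499c4, and at 20.0 and 25.4 TPM in 6694c2 (difference -1.85, SE 0.23, limma adjusted p = 0.00714), and Gstm5 was higher at 146 and 135 TPM against 62.9 to 111 TPM (difference 0.70, SE 0.15, limma adjusted p = 0.0394). Of 30 channels and transporters of ducts, 2 were higher and 7 lower, or 6.67% and 23.3%. Aqp5 differed by -4.07 (SE 0.26, limma adjusted p = 0.000949), and Aqp8, another water channel, was at 18.4 and 7.78 TPM in 2838c3, 48.7 and 50.3 in 6694c2, 95.5 and 75.6 in 6499c4, and 125 and 146 in 6419c5 (difference -2.68, SE 0.27, limma adjusted p = 0.00366). The sodium-proton exchanger Slc9a2 was at 0.0694 and 0.191 TPM in 2838c3, 11.4 and 11.3 in 6694c2, 24.1 and 21.4 in 6499c4, and 7.73 and 6.97 in 6419c5 (difference -3.58, SE 0.18, limma adjusted p = 0.000615), below all others, while Car8 and Clca1 were low in 2838c3 and in 6694c2. The 7 lower calls became 10, 4 and 6 without 6694c2, 6499c4 and 6419c5, and 4 without the 2 KO libraries rich in unnamed RNA. The 9 lower calls of drug metabolism became 9, 3 and 4, and 1.

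Enzymes of O-glycan synthesis, the pathway that the knockout cuts short, had 0 higher and 6 lower calls of 31 tested, beside 4.13% lower calls over all genes. These became 4 and 8 without 6694c2, 0 and 2 without 6499c4, 0 and 2 without 6419c5, and 0 and 0 without the 2 KO libraries rich in unnamed RNA. St3gal4, which caps glycans with sialic acid, was at 96 and 70.1 TPM in 2838c3, 98.8 and 96 in 6694c2, 192 and 141 in 6499c4, and 187 and 169 in 6419c5 (difference -0.78, SE 0.16, limma adjusted p = 0.0372), so the margin to 6694c2 was nearly nil. Galnt4, Galnt11 and Galnt18 start O-glycan chains. Galnt11 was below all others, at 2.53 and 1.37 TPM against 2.74 to 8.12 TPM (difference -1.12, SE 0.18, limma adjusted p = 0.0197), while Galnt4 (difference -1.47, SE 0.16, limma adjusted p = 0.00478) overlapped with 6694c2 and Galnt18 was high only in 6419c5, at 14.8 and 16.6 TPM. Imprinted genes had 0 higher and 4 lower calls of 16, or 25% lower. Those calls became 0 and 2 without 6694c2, 0 and 2 without 6499c4, 0 and 1 without 6419c5, and 0 and 0 without the 2 KO libraries rich in unnamed RNA. Cdkn1c, a cell cycle inhibitor, was at 0.0396 and 0 TPM in 2838c3, 3.20 and 1.65 in 6694c2, 3.50 and 3.47 in 6499c4, and 5.76 and 1.74 in 6419c5 (difference -1.97, SE 0.30, limma adjusted p = 0.0154), and its imprinted neighbour Slc22a18 at 4.42 and 8.11 TPM in 2838c3, 46.8 and 39.5 in 6694c2, 13.7 and 9.49 in 6499c4, and 24.9 and 21 in 6419c5 (difference -1.74, SE 0.26, limma adjusted p = 0.0150). Ddc, which makes dopamine and serotonin from their precursors, was at 25.6 and 5.46 TPM in 2838c3, 28.8 and 33.3 in 6694c2, 103 and 127 in 6499c4, and 145 and 128 in 6419c5 (difference -2.61, SE 0.45, limma adjusted p = 0.0232).

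Among 33 driver genes of pancreatic cancer, 3 were higher and 0 lower, or 9.09% higher, beside 2.66% of all genes tested. Those calls became 2 and 2 without 6694c2, 2 and 0 without 6499c4, 3 and 1 without 6419c5, and 0 and 0 without the 2 KO libraries rich in unnamed RNA. Mtap, a methionine salvage enzyme often lost with its neighbour Cdkn2a, was at 229 and 246 TPM in 2838c3, 86.4 and 62.3 in 6694c2, 138 and 113 in 6499c4, and 121 and 139 in 6419c5 (difference 1.16, SE 0.18, limma adjusted p = 0.0177), above all others. Cdkn2a, which encodes the tumour suppressors p16 and p19 Arf, was at 519.9 and 536 TPM in 2838c3, 5.76 and 5.21 in 6694c2, 1237 and 1507 in 6499c4, and 1212 and 1088 in 6419c5. Its call as higher (difference 1.29, SE 0.16, limma adjusted p = 0.00776) rested on the near absence in 6694c2, and the difference was -1.24 without that line. Cdkn2b had the same pattern, at 196 and 259.7 TPM in 2838c3 and 2.12 and 1.52 TPM in 6694c2, with a difference of -0.52 without 6694c2. Nras and Ccnd3 were gained markers that missed the threshold narrowly (limma adjusted p = 0.0535 and 0.0576). Hypoxia and glycolysis genes had 1 higher call of 39, near the 2.66% of all genes tested, and 0 after median-ratio scaling. The stress gene Ddit4 was at 492 and 1454 TPM in 2838c3, 362 and 175 in 6694c2, 276 and 344 in 6499c4, and 197 and 283 in 6419c5 and did not pass (limma adjusted p = 0.0784).

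The WT and KO libraries of 2838c3 differed from each other in genes of the cell cycle. Of 40 genes of the G1/S phase and 38 of G2/M, 0 were called in either direction between 2838c3 and the other lines. The mean log2(TPM + 1) of the G2/M list was 6.17 for WT and 3.32 for KO cells of 2838c3, which were the highest and the lowest of all 8 libraries, the others lying between 3.61 and 5.35. The G1/S list had 5.26 and 3.47, again the highest and the lowest. The list of hypoxia and glycolysis genes moved in the opposite direction, with a mean of 6.24 in WT and 7.69 in KO. Each value is from 1 culture, so a difference between the cultures and one between the genotypes cannot be told apart.

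The test of whether the KO effect in 2838c3 differed from that in the other 3 lines called 0 genes with limma. At an unadjusted p under 0.05 there were 2435, and the smallest adjusted p was 0.158. The test has 2 residual degrees of freedom, and a p that misses the threshold does not show that the KO effects were alike. Of the genes of smallest p, Epcam, an epithelial adhesion molecule, was at 1.35 and 25.1 TPM in 2838c3, 3.12 and 1.21 in 6694c2, 12 and 9.15 in 6499c4, and 44.9 and 27.1 in 6419c5. It was higher in KO than in WT in 2838c3 only. Aldh1a3, which makes retinoic acid, was at 5.92 and 39.6 TPM in 2838c3, 25 and 17.3 in 6694c2, 102 and 78.2 in 6499c4, and 13.2 and 6.52 in 6419c5. The focal adhesion protein Lims2 was at 3.54 and 37.5 TPM and Pdzk1ip1, a small membrane protein, at 1.68 and 9.03 TPM in WT and KO of 2838c3. In the opposite direction, the mitotic activator Cdc20 was at 325 and 26.7 TPM in 2838c3, 152 and 149 in 6694c2, 128 and 124 in 6499c4, and 68.6 and 102 in 6419c5. The kinetochore genes Spc24 (33 and 2.04 TPM) and Pmf1 (60.5 and 9.33 TPM) and the matrix protein Thbs3 (56 and 7.76 TPM) were also lower in KO than in WT.

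To see how far the identity of 2838c3 in one genotype held in the other, genes were chosen in WT libraries and read in KO libraries. Of 144 genes at least 1 log2 unit above the 3 other WT libraries, 61 (42.4%) were above the 3 other KO libraries in the KO library of 2838c3, against 29.3% of all genes tested. Of 96 genes at least 1 log2 unit below, 58 (60.4%) were below in KO, against 20.7% of all genes tested. Chosen in KO and read in WT, 120 of 270 higher genes (44.4%) and 59 of 107 lower genes (55.1%) held, against 26.5% and 24.1% of all genes tested. In 6499c4 the same choice in WT held for 94 of 97 higher genes (96.9%) and 110 of 125 lower genes (88.0%), against 22.9% and 24.7% of all genes tested. In 6694c2 it held for 63.2% and 98.3%, against 18.5% and 35.9% of all genes tested. In 6419c5 it held for 91.6% and 48.1%, against 29.1% and 16.4%. At 2 log2 units, 22 of 26 higher (84.6%) and 27 of 32 lower genes (84.4%) of 2838c3 held from WT to KO. In the reverse choice at 2 log2 units, 20 of 51 higher (39.2%) and 25 of 31 lower genes (80.6%) held, so the share of higher genes rose with the stricter choice in one direction and not in the other. The share of higher genes that held was thus lower in 2838c3 than in the other 3 lines at 1 log2 unit, a description without a test.

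**Figure D4:**
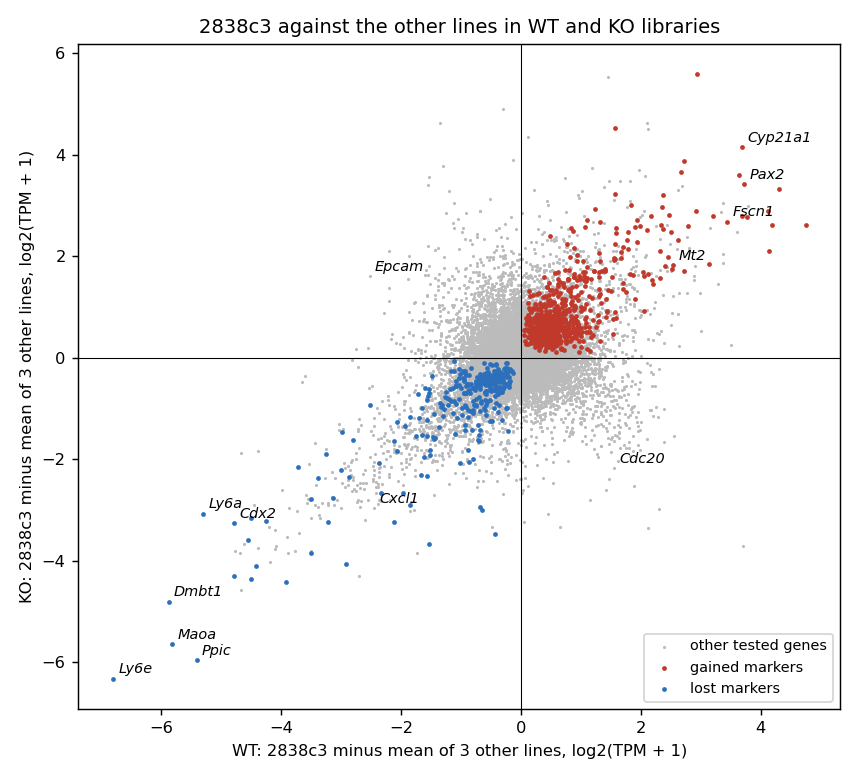
Difference of 2838c3 from the mean of the 3 other lines, in log2(TPM + 1), in the WT libraries (x axis) and in the KO libraries (y axis), 1 point per gene tested; red points are gained and blue points lost markers, which lie in the upper right and lower left by their rule. Epcam and Cdc20 lie in the other quadrants, and Ly6e, Maoa and Ppic are farthest to the lower left.

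Markers were spread unevenly over chromosomes. Gained markers made up 12.7% of the tested genes on chromosome 8, 12.3% on chromosome 3, 10.0% on chromosome 2, 9.95% on chromosome 15 and 8.04% on chromosome 13, against 4.96% overall. Lost markers made up 6.67% on chromosome 11, 4.95% on chromosome 7 and 4.16% on chromosome 12, against 2.08% overall. The median difference of all tested genes on chromosome 8 from the mean of the other lines was 0.25 in the WT and 0.24 in the KO libraries. It was 0.27 and 0.16 on chromosome 2, 0.20 and 0.15 on chromosome 3, and -0.31 and -0.15 on chromosome 11. Both genotypes thus gave the same sign on these 4 chromosomes, whereas on chromosome X the medians were -0.18 and 0.11. Larger medians occurred in other lines, such as 0.58 and 0.51 for 6419c5 on chromosome 16 and -0.50 and -0.56 for 6694c2 on chromosome 10. DNA copy number was not measured here.

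**Figure D5:**
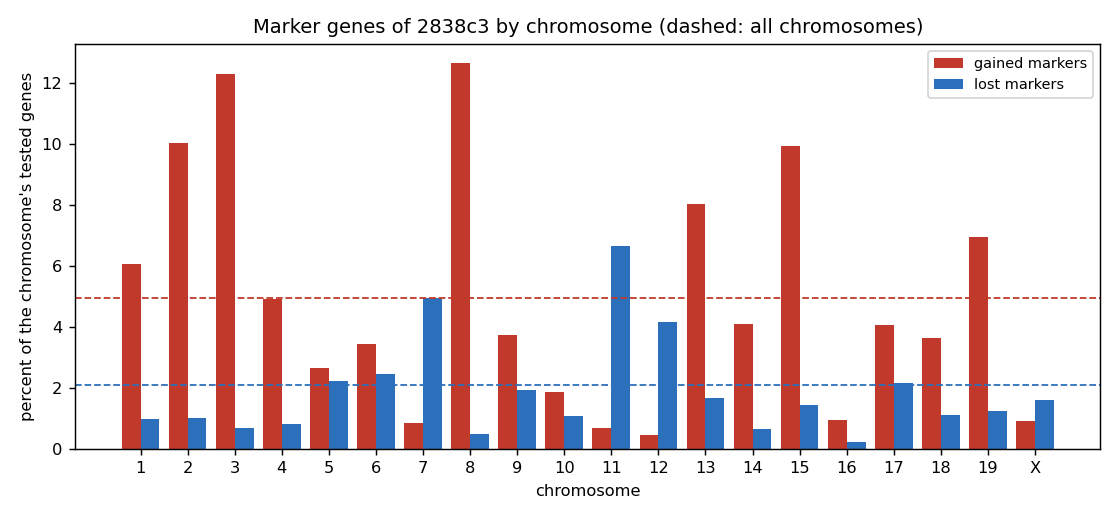
Share of the tested genes of each chromosome (x axis) that are gained (red) or lost (blue) markers of 2838c3, in percent; dashed lines are the shares over all chromosomes, 4.96% and 2.08%. Chromosomes 8 and 3 have the tallest red bars and chromosome 11 the tallest blue bar.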

How the data were processed

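Poly(A) RNA of 8 cultured libraries, 1 WT and 1 KO for each of 4 lines, was sequenced; per the labels the ERCC spike-ins were added and were not used here. The design text names a HiSeq and the protocol a NovaSeq instrument. The authors deposited 1 table of TPM for 49315 gene identifiers, and the submitters' processing notes list STAR 2.7.11b, featureCounts 2.1.1, cutadapt 5.1 and the mm39 build. The gene lengths behind the TPM are not given in the sources used here. Every column adds up to 1000000 TPM, so its depth is unknown and no counting interval is given.

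Names and positions came from GENCODE vM39 on GRCm39, the assembly of mm39, which named 45505 identifiers and left 3810 unnamed. Genes with at least 1 TPM in at least 2 of 8 libraries were tested, 14268 in all; a minimum of 2 libraries keeps genes expressed in 1 line. The test was limma 3.58.1 (R 4.3.3) on log2(TPM + 1), with terms for line and genotype and with a trend of variance on level, two-sided, with Benjamini-Hochberg adjustment over all genes tested and a threshold of 0.05. Differences are on that log2(TPM + 1) scale, on which changes of low genes come out too small. The fit was tested on simulated data with changes set in 2838c3, only in genes with a mean log2(TPM + 1) above 1. A gene otherwise had the same mean in all simulated libraries. Calls that rest on a difference among the other lines were thus not covered. The fit recovered 19% of 100 changes of 1 log2 unit and 69% of 100 changes of 2 log2 units, with 3 false calls. A gene or list without a call may therefore still differ. Promoter windows came from RefSeq (GRCm38.p6), which listed 100 of the 153 genes named by rule.

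The rule named the 15 gained and 15 lost markers of largest gap, up to 4 markers and up to 4 genes of smallest p past the threshold in each of 34 gene lists (1 of smallest p where a list had neither), C1galt1c1, and the 4 genes each way of smallest p in the test of the KO effect. Predicted genes were skipped, and some genes are not reported here. Genes named beyond it are marked as looked up or picked afterwards, or are members counted in a list or cell type marker set. The markers, lists and rules were chosen with earlier results of these data known, so no list is independent evidence. The alternatives tried were other pseudocounts, filters, scalings and model settings, and leaving out each library, each other line, and the 2 KO libraries rich in unnamed RNA together; the last, and the list counts without a line, were added after seeing the data.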

Additional observations from a re-analysis of the deposited data

Results flagged for a closer look

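The mean log2(TPM + 1) of 31 gene lists with at least 5 genes tested was screened for a library far from the others, separately among the 4 WT and the 4 KO libraries, 62 groups in all. Chance flags about 1 in 20 such groups, and 3 were flagged, none of them a library of 2838c3. The Hox genes had a mean of 3.26 in the WT library of 6419c5, against 0.02 to 0.54 in the other WT libraries. The driver genes of pancreatic cancer had a mean of 4.71 in the WT library of 6694c2, against 5.22 to 5.32. Acinar and islet markers had a mean of 2.32 in the KO library of 6694c2, against 1.96 to 2.01. Each touches a comparison of 2838c3 as a high or low level of another line.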

How the results depend on the processing

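The counts of 379 higher and 589 lower genes in 2838c3 (limma) stayed within 1.5 times under another pseudocount, 2 stricter filters, median-ratio and quantile scaling, structural RNA left out, no variance trend, a robust prior and no genotype term. Without a filter they were 123 and 192, with more genes in the adjustment. Leaving out 1 library gave 104 to 346 higher and 210 to 439 lower, without line 6694c2 541 and 867, without 6499c4 84 and 220, without 6419c5 162 and 193, and without both KO libraries rich in unnamed RNA 26 and 83; the cause was not tested. Gained markers numbered 18 and lost markers 25 with a gap of at least 1 log2 unit; leaving out 1 library gave 739 to 2419 gained and 315 to 1079 lost, the extremes without a library of 2838c3, since a rule with fewer values is met more easily. Lost markers were 510 without the KO library of 6694c2. The share held from WT to KO was 84.6% (higher) and 84.4% (lower) at 2 log2 units, and from KO to WT 39.2% and 80.6%. The KO effect of 2838c3 had 0 calls under every alternative run. Of 125 genes chosen for naming and called, 109 kept direction and call without 6694c2, 69 without 6499c4, 75 without 6419c5 and 66 without a filter. Leaving out both KO libraries rich in unnamed RNA keeps only the WT library of 6694c2 and of 6419c5. Most of the 125 then lost their call, and none changed direction. Many single-gene calls thus depend on the lines and libraries compared and on the filter. The sign of 4 genes turned: without 6694c2 Cdkn2a was at -1.24 and Cdkn2b at -0.52, without 6499c4 Cldn18 was at 0.13, and without 6419c5 Grem1 was at 0.19. The labels give no replicate numbers; the fit has genotype as a block across lines, and without that block it called 356 higher and 553 lower. TPM keep no depth, so low levels have no counting error here.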
